A study of Rattus norvegicus with 8 samples.

Results

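S100 proteins and annexins are calcium-binding proteins, and the 10 genes described here are S100a4, S100a6, S100a8, S100a9, S100a10, S100a11, Anxa1, Anxa2, Anxa4 and Anxa5. They were taken by name: every non-control probe of the array whose gene name in the files equals one of them was used. This gave 12 probes, and 10 of the 36144 gene names on the array. The samples were 4 arrays of NR8383 cells that received NM401, a multi-walled carbon nanotube, at 0.17 µg/mL, and 4 arrays of unexposed NR8383 cells (control), both after 4 h of incubation in serum-free medium. NR8383 is a single line of rat alveolar macrophages, begun from the lavage of a normal rat lung and grown partly attached and partly floating, so the 4 biological replicates of each group are cultures of 1 line. Dishes were seeded alike in both groups, and total RNA was labelled with Cy3 and hybridised to 1-colour Agilent arrays.

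S100 proteins are small proteins with paired EF-hand calcium sites that work mostly as dimers: calcium opens a surface through which they bind other proteins. Annexins bind membranes rich in acidic phospholipids in the presence of calcium, and several of them gather at torn plasma membrane and help to close it. Both families meet in complexes, of which the best described joins S100a10 (p11) to Anxa2. Outside the cell S100a8, S100a9 and S100a4 act as alarm signals through receptors such as Ager and Tlr4, and Anxa1 acts through formyl peptide receptors to dampen inflammation.

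Levels are given as the log2 processed signal of a probe minus the 75th percentile of the non-control spots of its array, so a level of 0 means a signal equal to that percentile. Differences are NM401 minus control on the same log2 scale, with the standard error (SE) of limma's fit over all tested probes, and a gene was called at a Benjamini-Hochberg adjusted p below 0.05. The 75th percentile itself was 2692 ± 172 intensity units on NM401 arrays and 1236 ± 224 on control arrays (SD, n = 4 each), and 55.4% ± 1.82 and 54.1% ± 2.12 of spots were well above background. The median log2 level of the spike-in control probes was -2.00 ± 0.13 on NM401 arrays and 0.29 ± 0.52 on control arrays (SD, n = 4 each), a difference of -2.30 that is larger in size than that of any member. All directions below are therefore relative to the 75th percentile, not to the spike-in, and the part of this gap in them was not tested. All control arrays and NM401 replicate 1 lay on slide 1 and NM401 replicates 2 to 4 on slide 2, so an estimate within slide 1, or with the slide as a block, rests on NM401 replicate 1 alone. Control arrays lay in row 1 and NM401 arrays in row 2 of the slides, so an effect of the row cannot be told apart from that of NM401. The median difference of the 17372 genes tested was -0.10, and it was 0.11 with arrays scaled to their medians and 0.01 with quantile normalisation, so the members are to be read against that shift. Of the 14 macrophage markers on the array 10 were well above background on every array, while C1qa and Marco were so on none. The summed linear level of those 14 markers, in multiples of the 75th percentile, was 178 to 189 on NM401 arrays and 186 to 195 on control arrays. Single macrophage markers moved both ways. Of the 11 tested, 4 were called higher and 4 lower, beside 22% and 35.4% of all genes tested. Well above background on every array were 0 of 12 epithelial, 5 of 12 fibroblast and endothelial and 4 of 11 lymphocyte markers. Their sums were 0.0406 to 0.0923, 3.12 to 3.22 and 0.527 to 0.648 on NM401 arrays, against 0.0839 to 0.107, 2.93 to 3.81 and 1.08 to 1.28 on control arrays. No array in either group was well above background for 8 epithelial markers (Epcam and Cdh1 among them) and 6 fibroblast and endothelial markers (Col1a1 and Kdr among them).

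S100a10, Anxa5, Anxa4 and S100a4 were higher with NM401, by 0.54, 0.50, 0.30 and 0.28 on the log2 scale, and in each the 4 NM401 arrays lay above the 4 control arrays. Anxa2 was lower by 0.24 on this scale, but its direction depended on the scaling: with quantile normalisation it was 0.20 higher, and with median scaling the difference was -0.03 and not called. S100a8, near the detection limit, was also lower on this scale. S100a6, S100a11 and Anxa1 did not pass the test, and S100a9 did not rise clearly above background on a single array. Of the 9 members tested, 4 were thus called higher, beside 22% of all genes tested, and 2 lower, beside 35.4%, or 6 in either direction beside 57.4%. Separation of the 4 NM401 from the 4 control values was seen for 5 members, beside 53.3% of all genes. With median scaling 6 members were higher and 1 lower, beside 35.1% and 19.2% of all genes. With quantile normalisation 7 were higher and 0 lower (limma; 0 lower also at an unadjusted p below 0.05), beside 28.6% and 26.7%. The members' median difference was 0.11, beside -0.10 for all genes. Because RNA was taken from whole cultures, a difference in the number of cells that hold a transcript and a difference in transcript per cell cannot be told apart.

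**Figure D1:**
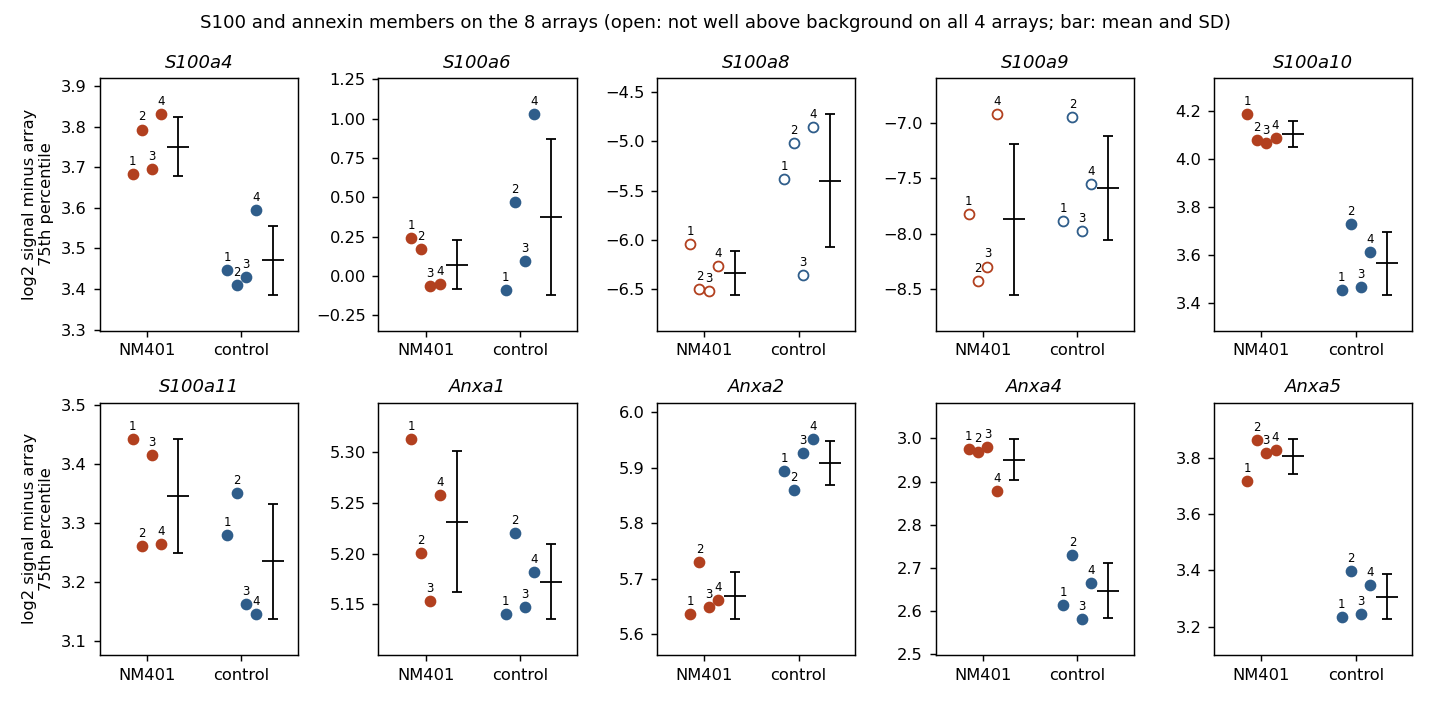
Log2 level (signal minus the array's 75th percentile) of each of the 10 members on the 4 NM401 arrays (red) and the 4 control arrays (blue), numbered by replicate, with the mean and SD beside them. Open points mark groups in which fewer than 4 arrays were well above background; each panel has its own vertical range. S100a4, S100a10, Anxa4 and Anxa5 separate upward with NM401, and Anxa2 separates downward on this scale but upward with quantile normalisation.

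S100a10 is an S100 protein that has lost calcium binding and stays in its open form, and it carries Anxa2 and plasminogen to the cell surface. Its probe, spotted 10 times, matches chromosome 2 at 186654233 to 186654292 of build rn4. The log2 level was 4.19, 4.08, 4.07 and 4.09 on NM401 arrays and 3.46, 3.73, 3.47 and 3.61 on control arrays. NM401 arrays lay close together and well above all controls, among which replicates 2 and 4 were the higher. The log2 difference was 0.54 ± 0.07 (SE), a 1.45-fold increase with a 95% interval of 0.37 to 0.71 (limma, adjusted p = 0.000593). It was 0.62 with the slide as a block (limma, adjusted p = 0.00964), and within slide 1 alone the same 0.62 was not called (limma, adjusted p = 0.0553).

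S100a4, which binds non-muscle myosin IIA and speeds the loss of its filaments, is known from motile cells including macrophages. Its main probe (chromosome 2, 182887318 to 182887377) had a log2 level of 3.68, 3.79, 3.70 and 3.83 on NM401 arrays and of 3.45, 3.41, 3.43 and 3.59 on control arrays. The groups did not overlap, though control replicate 4 came near the NM401 range. S100a4 rose by a log2 difference of 0.28 ± 0.06 (SE), 1.21-fold, with a 95% interval of 0.13 to 0.43 (limma, adjusted p = 0.00637). With the slide as a block the difference was 0.21 and not called (limma, adjusted p = 0.141). A second probe under this gene name, designed on an expressed sequence tag of the opposite strand (182887121 to 182887180), gave log2 levels of -2.94, -2.60, -2.82 and -2.72 on NM401 arrays and -2.88, -2.73, -2.81 and -2.66 on control arrays. It showed a difference of 0.00 ± 0.09 (SE; limma, adjusted p = 0.992), and the mean of both probes was 0.14 and not called.

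S100a6 (calcyclin), a calcium sensor that binds the ubiquitin ligase adaptor Cacybp, has its probe a few kilobases beyond that of S100a4, at 182896189 to 182896248. Its log2 level was 0.24, 0.17, -0.07 and -0.05 on NM401 arrays and -0.09, 0.47, 0.09 and 1.03 on control arrays. All NM401 values fell inside the wide control range, whose lower end was control replicate 1 and whose upper end was control replicate 4. The log2 difference was -0.30 ± 0.23 (SE), with a 95% interval from -0.82 to 0.22 (limma, adjusted p = 0.282). No change was called, and a change within that interval was not excluded by these arrays.

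S100a11 (calgizzarin) binds the amino terminus of Anxa1 and was also measured with 10 spots (chromosome 2, 186620424 to 186620483). Its log2 level was 3.44, 3.26, 3.42 and 3.27 on NM401 arrays and 3.28, 3.35, 3.16 and 3.15 on control arrays, and the groups overlapped. The log2 difference of 0.11 ± 0.07 (SE; 95% interval -0.06 to 0.28) was not called (limma, adjusted p = 0.222). It was called with median scaling, at 0.31, and with quantile normalisation, at 0.32.

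S100a8 and S100a9 form calprotectin, the calcium- and zinc-binding heterodimer that neutrophils and monocytes hold in large amounts and release during inflammation. In these macrophages both lay at the edge of detection. The main S100a8 probe (chromosome 2, 182962328 to 182962387) had log2 levels of -6.04, -6.50, -6.52 and -6.26 on NM401 arrays and -5.38, -5.02, -6.36 and -4.85 on control arrays, and was well above background on 1 of the 4 NM401 arrays and 3 of the 4 control arrays. Control replicate 3 lay within the NM401 range, so the groups overlapped. S100a8 was lower by a log2 difference of -0.93 ± 0.31 (SE; 95% interval -1.64 to -0.22; limma, adjusted p = 0.0322). The strength of this call depended on how background was handled. It was -0.94 with normexp background correction (limma, adjusted p = 6.58e-05) and -0.96 with the deposited series values (limma, adjusted p = 0.000194). These small p-values are not read as a stronger call, since near background the level depends on the percentile subtracted from each array. Before scaling, the processed signal was 43.6, 28.1, 30.6 and 33.2 units on NM401 arrays and 31.6, 46.0, 14.4 and 33.2 on control arrays. The part of the scaling in the S100a8 difference was not tested. Without the filter on dim probes S100a8 was not called (limma, adjusted p = 0.0644). The call was lost when any 1 array other than NM401 replicate 1 or control replicate 3 was left out, with quantile normalisation (limma, adjusted p = 0.0880) and with the slide as a block (limma, adjusted p = 0.360).

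A second S100a8 probe, not placed on the genome in the files, was well above background only on NM401 replicate 1. Its log2 level there was -6.23, against -8.42, -8.48 and -8.50 on the other NM401 arrays and -8.34, -8.31, -7.92 and -7.53 on control arrays. The S100a9 probe (182987647 to 182987706) read -7.82, -8.43, -8.30 and -6.92 on NM401 arrays and -7.88, -6.94, -7.98 and -7.55 on control arrays. None of these S100a9 values was well above background, so no fold is given.

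Of 12 neutrophil markers beside S100a8, 4 (Camp, Cebpe, Lcn2 and Mmp9) were well above background on all arrays and 5 (Csf3r, Cxcr2, Elane, Ngp and Prtn3) on none. Their summed linear level ranged from 11.7 to 13.1 on NM401 arrays and from 4.33 to 22.3 on control arrays. Mpo, the peroxidase of neutrophil granules, had log2 levels of -6.78, -8.52, -8.31 and -8.40 on NM401 arrays and -4.93, -5.28, -4.77 and -4.57 on control arrays, and it was well above background on 4 of the 8 arrays. The tested neutrophil markers did not share 1 direction. Mpo, at -3.11, and Camp, at -0.49, were called lower, and Cebpe, at 0.29, was called higher. The size of the Mpo difference is not settled, and it was -1.32 with normexp background correction. On NM401 replicates 2 to 4 Mpo lay below the lowest level well above background on those arrays, -6.35, -6.36 and -6.41. Lcn2, at 0.43, and Mmp9, at 0.50, were not called. These calls depended on the processing. Camp was not called with median scaling, at -0.29, and Mmp9 was called higher with median scaling, at 0.70, quantile normalisation, at 0.52, and normexp, at 0.38. With the slide as a block Camp stood at -0.24 and Cebpe at 0.25. The part of these transcripts in the S100a8 result was not tested.

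Among the annexins, Anxa5 is the classical binder of exposed phosphatidylserine and forms lattices on membrane at a wound. Its probe (2 spots, chromosome 2, 122950184 to 122950243) had a log2 level of 3.72, 3.86, 3.81 and 3.83 on NM401 arrays and 3.24, 3.40, 3.25 and 3.35 on control arrays. The lowest NM401 value, that of replicate 1, was above the highest control value. Anxa5 rose by a log2 difference of 0.50 ± 0.06 (SE), 1.41-fold, with a 95% interval of 0.36 to 0.64 (limma, adjusted p = 0.000339). With the slide as a block the difference was 0.41 (limma, adjusted p = 0.0151), and within slide 1 alone it was not called (limma, adjusted p = 0.0769).

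Anxa4, an annexin that aggregates vesicles and bends membrane edges, was measured with 2 spots on chromosome 4 (120890522 to 120890581). The log2 levels were 2.98, 2.97, 2.98 and 2.88 on NM401 arrays and 2.61, 2.73, 2.58 and 2.67 on control arrays, with no overlap. The log2 difference was 0.30 ± 0.05 (SE), 1.23-fold, with a 95% interval of 0.18 to 0.43 (limma, adjusted p = 0.00209). It was 0.33 with the slide as a block (limma, adjusted p = 0.0292) and not called within slide 1 alone (limma, adjusted p = 0.105).

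Anxa2 links membranes to actin, serves in exocytosis and, with S100a10, in the assembly of plasmin at the cell surface. Its probe (chromosome 8, 73933982 to 73934041) had log2 levels of 5.64, 5.73, 5.65 and 5.66 on NM401 arrays and 5.89, 5.86, 5.93 and 5.95 on control arrays. The groups were tight and did not overlap. The log2 difference was -0.24 ± 0.05 (SE), which is 1.18-fold lower with NM401 (95% interval -0.35 to -0.13; limma, adjusted p = 0.00397), against -0.03 with median scaling (limma, adjusted p = 0.715) and 0.20 with quantile normalisation (limma, adjusted p = 0.00481). Because the sign turned with the scaling, these arrays do not settle whether Anxa2 transcript fell.

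Anxa1 (lipocortin), a glucocorticoid-regulated annexin of phagocytes, was measured with 10 spots on chromosome 1 (223478470 to 223478529). Its log2 level was 5.31, 5.20, 5.15 and 5.26 on NM401 arrays and 5.14, 5.22, 5.15 and 5.18 on control arrays, so the groups overlapped. The log2 difference was 0.06 ± 0.05 (SE; 95% interval -0.07 to 0.18; limma, adjusted p = 0.378). With median scaling, at 0.26, and with quantile normalisation, at 0.39, Anxa1 was called higher.

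**Figure D2:**
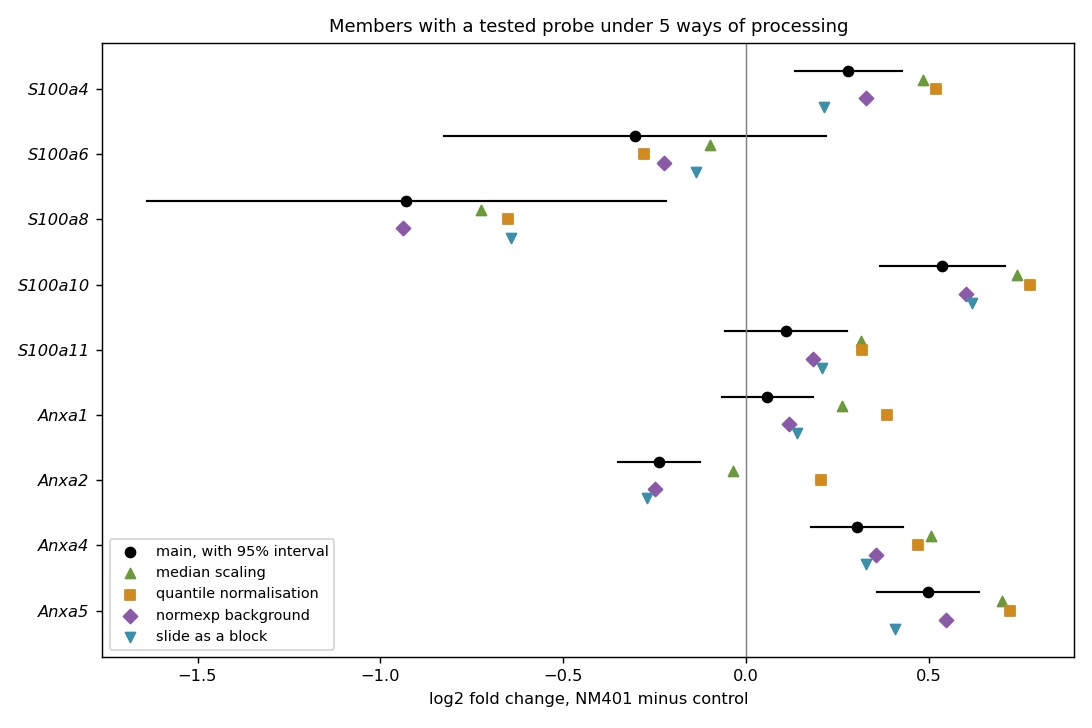
Log2 difference, NM401 minus control, of the 9 tested members under 5 ways of processing, with the 95% interval of limma's fit for the values of the report (black). S100a4, S100a10, Anxa4 and Anxa5 lie right of 0 and S100a6 and S100a8 left of 0 under each of the 5, while Anxa2 moves from -0.24 to 0.20 with quantile normalisation.

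Sequence just before the transcription start is shown for 3 called members, S100a4 and Anxa5, which were higher, and Anxa2, whose direction depended on the scaling. RefSeq promoters on build GRCr8 were matched for 8 of the 10 members. The 250 bases before each start are given 5′ to 3′ on the gene's strand, from chr2:178388279-178388528 (plus strand) for S100a4, chr2:121272697-121272946 (minus strand) for Anxa5 and chr8:78986002-78986251 (plus strand) for Anxa2. Capitals mark every match, on either strand, to TATAAA, to the GC box GGGCGG, to the AP-1 motif TGANTCA and to the C/EBP motif TTGCNNAA.
S100a4: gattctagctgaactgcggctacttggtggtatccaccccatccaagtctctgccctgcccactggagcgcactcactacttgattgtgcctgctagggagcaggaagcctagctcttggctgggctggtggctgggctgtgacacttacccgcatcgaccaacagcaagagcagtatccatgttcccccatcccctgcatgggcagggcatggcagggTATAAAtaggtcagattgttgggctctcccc
Anxa5: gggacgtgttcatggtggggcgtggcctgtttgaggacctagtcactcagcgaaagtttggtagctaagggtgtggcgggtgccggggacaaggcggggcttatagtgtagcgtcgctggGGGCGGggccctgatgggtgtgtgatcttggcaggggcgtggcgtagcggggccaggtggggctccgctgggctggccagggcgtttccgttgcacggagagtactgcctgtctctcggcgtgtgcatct
Anxa2: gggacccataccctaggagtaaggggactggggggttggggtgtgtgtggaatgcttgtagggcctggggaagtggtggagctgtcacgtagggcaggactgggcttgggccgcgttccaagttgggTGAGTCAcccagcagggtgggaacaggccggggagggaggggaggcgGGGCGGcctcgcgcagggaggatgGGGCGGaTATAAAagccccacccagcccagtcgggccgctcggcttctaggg
S100a4 held TATAAA beginning 31 bases before the start and none of the other motifs, and Anxa2 held TATAAA beginning 45 bases before it, with 2 GC boxes and 1 AP-1 motif beginning at 123 bases. Anxa5 had 1 GC box and no TATAAA. No matches overlapped in these 3 windows. Among all 33469 RefSeq promoters of the same length, 12.9% held TATAAA, 30.5% the GC box, 6.34% the AP-1 motif and 9.22% the C/EBP motif. Of the other matched members, S100a9 and Anxa1 held TATAAA, Anxa1 also 1 C/EBP motif, and S100a6, S100a11 and Anxa4 the GC box.

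Because S100a10 and S100a4 bind Anxa2 and S100a11 binds Anxa1, the within-array log2 difference of each pair was compared between groups. These 3 pairs were chosen after the values had been seen and are described without a test. A probe's signal is not comparable with another probe's, so only the change of the difference between groups is informative. S100a10 minus Anxa2 was -1.45, -1.65, -1.58 and -1.58 on NM401 arrays and -2.44, -2.13, -2.46 and -2.34 on control arrays. Its mean was -1.56 ± 0.08 with NM401 and -2.34 ± 0.15 in controls (SD, n = 4 each), so it was 0.78 greater with NM401, 0.57 greater with quantile normalisation and 0.89 greater within slide 1. S100a4 minus Anxa2 averaged -1.92 ± 0.06 with NM401 and -2.44 ± 0.06 in controls (SD, n = 4 each), a change of 0.52, or 0.32 with quantile normalisation. Both S100 partners thus had more signal relative to Anxa2 on each NM401 array than on any control array. This is no separate result: it follows from the levels already given, in which S100a10 and S100a4 separated upward and Anxa2 downward. Both pairs also share the Anxa2 probe. S100a11 minus Anxa1 averaged -1.88 ± 0.11 with NM401 and -1.94 ± 0.09 in controls (SD, n = 4 each), and its change of 0.05 was smaller than the spread within either group.

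**Figure D3:**
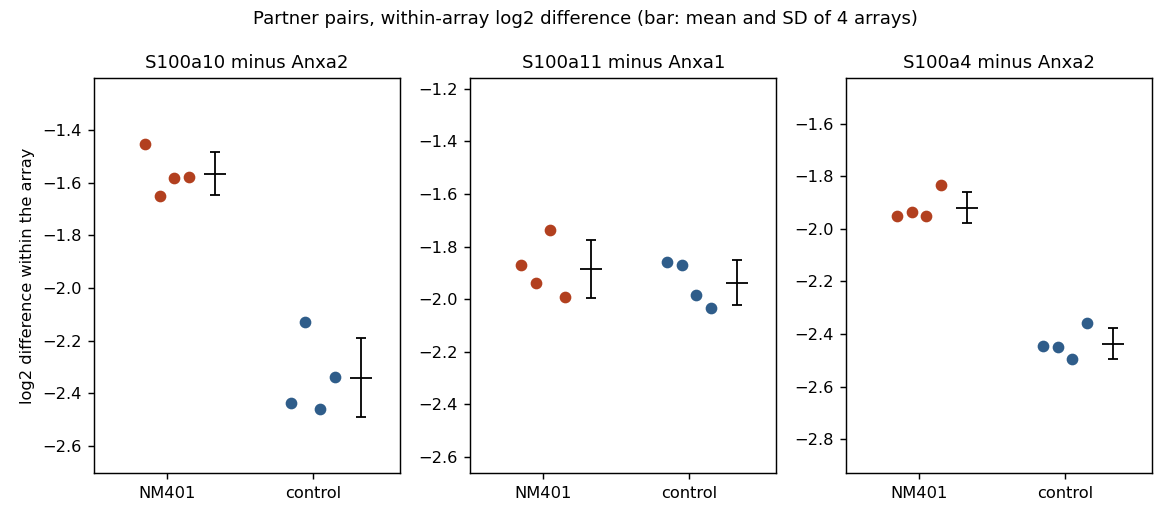
Within-array log2 difference between the probes of 3 S100 and annexin binding partners on the 4 NM401 arrays (red) and the 4 control arrays (blue), with mean and SD; each panel has its own vertical range. S100a10 and S100a4 lie nearer to Anxa2 on all NM401 arrays than on control arrays, and S100a11 minus Anxa1 overlaps between the groups.

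Of 20 further S100 and annexin genes (with the S100-binding S100pbp), 18 were on the array and 7 were tested. In these 7, 1 gene was higher and 5 were lower, beside 22% and 35.4% of all genes tested. Anxa7 was not called, at 0.04 ± 0.05 (SE; limma, adjusted p = 0.523). The median difference of the 7 was -0.35. The split depended on the scaling. With median scaling 2 were higher and 2 lower, beside 35.1% and 19.2% of all genes. With quantile normalisation 2 were higher and 4 lower, beside 28.6% and 26.7%. The 11 others, S100a3, S100a5, S100a7a, S100a16, S100b, S100g, S100p, S100z, Anxa8, Anxa10 and Anxa13, were too dim on most arrays to be tested.

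Anxa11, which tethers RNA granules to lysosomes, was the lowest-p member of that list. Its log2 level was 4.29, 4.22, 4.02 and 4.14 on NM401 arrays and 4.82, 4.73, 4.79 and 4.83 on control arrays. It fell by a log2 difference of -0.63 ± 0.07 (SE; limma, adjusted p = 0.000216), and it was called lower with median scaling, at -0.42, with quantile normalisation, at -0.35, and within slide 1, at -0.50. Anxa6, an annexin with a doubled core that also acts at membrane wounds, was lower by -0.37 ± 0.08 (SE; limma, adjusted p = 0.00451), with log2 levels of 1.79 to 1.99 on NM401 arrays and 2.08 to 2.36 on control arrays. With median scaling Anxa6 was at -0.17 and not called.

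Anxa3 was lower by -0.35 ± 0.10 (SE; limma, adjusted p = 0.0195), and with median scaling it was at -0.15 and not called. S100a1, a calcium sensor best known from muscle, was lower by -0.94 ± 0.24 (SE; limma, adjusted p = 0.0101) at levels near background, and -0.33 with the slide as a block, not called. S100a13, which takes part in the leaderless export of FGF1 and interleukin-1 alpha, was higher by 0.30 ± 0.10 (SE; limma, adjusted p = 0.0379), but 0.10 with the slide as a block and 0.07 with normexp background correction, neither called. S100pbp was lower by -0.17 ± 0.06 (SE; limma, adjusted p = 0.0341), against 0.03 with median scaling. Its 3 probes disagreed: the 2 others stood at 0.68, called higher, and 0.28, not called.

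Most S100 genes lie side by side on rat chromosome 2. In the order of the files' rn4 probe positions, S100a1, S100a13, S100a16, S100a3, S100a4, S100a5, S100a6, S100a7a, S100a8 and S100a9 follow each other with gaps of 2.6 to 70.3 kb between neighbouring probes, and S100a11 and S100a10, 33.8 kb apart, lie 3632.8 kb beyond S100a9. On this scale neighbouring genes differed in direction and in detection. S100a4, called higher at 0.28, lay 4 kb from S100a3 and 6.3 kb from S100a5, both untested for low signal. S100a1, called lower at -0.94 near background, lay 11.6 kb from S100a13, called higher at 0.30. With the slide as a block the differences of S100a1 and S100a13 shrank to -0.33 and 0.10, and S100a13 was at 0.07 with normexp background correction. S100a10, higher at 0.54, lay beside S100a11, which was not called at 0.11.

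Receptors, ligands and partners of the members were listed from known biology: 25 genes, of which 23 were on the array and 19 tested. In that list 5 genes were higher and 4 lower, beside 22% and 35.4% of all genes tested, and 10 were not called. The median difference was 0.02. With median scaling 10 were higher and 2 lower, beside 35.1% and 19.2% of all genes. With quantile normalisation 7 were higher and 2 lower, beside 28.6% and 26.7%. Ager, the receptor for advanced glycation end products and for several S100 proteins, had the smallest p, with a log2 difference of 0.99 ± 0.09 (SE; limma, adjusted p = 0.000118), which was 0.29 with normexp background correction. Ly96 (MD-2), the co-receptor of Tlr4, was higher by 0.48 ± 0.06 (SE; limma, adjusted p = 0.000386), whereas Tlr4 itself stood at 0.26 ± 0.14 (SE) and was not called (limma, adjusted p = 0.138). With median scaling Tlr4 was called higher too, at 0.47, but not with quantile normalisation, at 0.29.

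Myh9, the heavy chain of the myosin IIA that S100a4 binds, was lower by -0.94 ± 0.09 (SE; limma, adjusted p = 0.000148), also with median scaling, at -0.73, and quantile normalisation, at -0.71. Plg, the plasminogen bound by S100a10, was lower by -0.60 ± 0.12 (SE; limma, adjusted p = 0.00295). Pdcd6 (ALG-2), a calcium sensor that binds annexins and recruits repair proteins, was higher by 0.32 ± 0.05 (SE; limma, adjusted p = 0.00121). Cd68, a lysosomal glycoprotein and macrophage marker, was lower by -0.36 ± 0.06 (SE; limma, adjusted p = 0.00113), but -0.15 with median scaling and -0.08 with quantile normalisation, not called in either. Cd68 does not stand for the macrophage markers: of the 11 tested, 4 were called lower and 4 higher, beside 35.4% and 22% of all genes. Fabp4, at 2.06, and Msr1, at 1.06, were among the higher ones.

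Ahnak, the giant scaffold held at the membrane by S100a10 and Anxa2, had a difference of -0.15 ± 0.07 (SE; limma, adjusted p = 0.113), while a second probe was called higher at 0.36. Bsg (basigin), a receptor for S100a9, had a difference of -0.10 ± 0.09 (SE; limma, adjusted p = 0.376). Fpr1, a formyl peptide receptor bound by Anxa1, was well above background on 0 of the 8 arrays. Fpr2 and Fpr3, also listed, had no probe under these names on the array, so their levels are not known here.

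The 30 listed genes of membrane repair were all on the array and 26 were tested. Of these 7 were higher and 9 lower, beside 22% and 35.4% of all genes tested, and 10 were not called. Pdcd6 is counted in both lists. The median difference of the repair genes was 0.00. With median scaling 11 were higher and 4 lower, beside 35.1% and 19.2% of all genes. With quantile normalisation 8 were higher and 5 lower, beside 28.6% and 26.7%. Vps4a, the ATPase that takes ESCRT-III filaments apart, was higher by 0.63 ± 0.06 (SE; limma, adjusted p = 0.000113). Snap23, a fusion SNARE, was higher by 0.50 ± 0.06 (SE; limma, adjusted p = 0.000270), and its second probe was called higher too. Chmp3, an ESCRT-III subunit, was higher by 0.52 ± 0.06 (SE; limma, adjusted p = 0.000367) on its brightest probe, while its other probe was called lower at -0.25.

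Capn1, the calpain protease subunit that cleaves cytoskeleton at wounds, was lower by -0.69 ± 0.07 (SE; limma, adjusted p = 0.000135). Lgals1 was lower by -1.14 ± 0.11 (SE; limma, adjusted p = 0.000148), with a log2 level averaging -0.03 on NM401 arrays and 1.11 on control arrays. Lgals3, the galectin that marks ruptured lysosomes, was lower by -0.55 ± 0.08 (SE; limma, adjusted p = 0.00104), but -0.02 with quantile normalisation and not called.

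**Figure D4:**
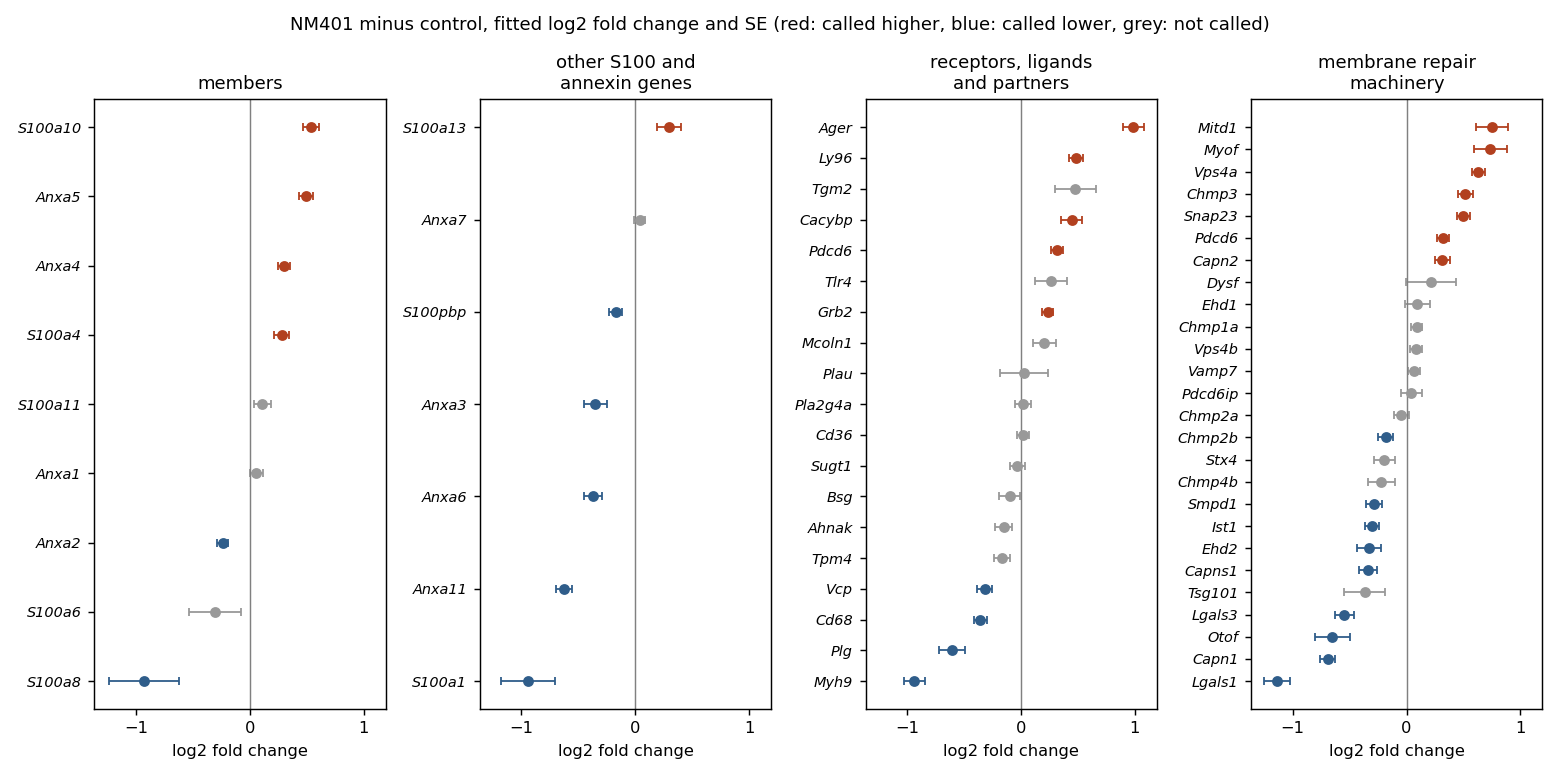
Log2 difference, NM401 minus control, with the SE of limma's fit for each tested gene of the 4 lists, coloured by call at an adjusted p below 0.05. Each list holds genes on both sides of 0. On other scales Anxa2 was called higher, at 0.20, with quantile normalisation, and S100pbp, at 0.03, and Chmp2b, at 0.02, were not called with median scaling.

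Across the 8 arrays the genes whose levels were most like S100a10, by Pearson's r among 9615 named genes well above background on all arrays, were Mlf1 (r = 0.995), Srp9 (r = 0.995) and Cxcl2 (r = 0.994). For Anxa5 they were Josd2, Rps6kb2 and Ifi27l2b (r = 0.994 each). The arrays of the 2 groups stand apart in all of these genes, and the r values are given as a description.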

How the data were processed

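Cy3 signal of 8 arrays (4 NM401, 4 control) was used, each with 62976 spots, 58717 of them non-control. The authors deposited spot intensity values from Agilent Feature Extraction 11.0.1.1, per the submitters' processing notes and the file headers. Background subtraction within each array is stated there. The intensity values of the deposited series matrix nevertheless equalled the raw median pixel signal, without background subtraction, for 503808 of 503808 values. Groups came from the labels.

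Spots of a probe were averaged as log2 processed signal, after outlier spots were left out (47 of 45598 probes dropped), and each array's 75th percentile was subtracted. The 21660 probes that were well above background on 4 or more arrays were tested with limma 3.58.1 (lmFit, eBayes, two-sided) in R 4.3.3 with data.table (version 1.17.8), adjusted by Benjamini-Hochberg over all of them; the script was tested on simulated data. A gene is its brightest tested probe. Positions are rn4, per the file headers; promoters are RefSeq GRCr8. The number of arrays limits the precision, and 0 non-control spots were saturated.

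Members and lists were chosen with earlier results of these data known. All members and further family genes are accounted for; of the partner and repair lists, up to 6 called genes with the smallest p and uncalled direct partners are named, and 3 genes most like a member. Alternatives were normexp (offset 50), median and quantile scaling, 2 other filters, series values, mean of probes, slide and replicate blocks, slide 1 alone, and leaving out each array.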

Additional observations from a re-analysis of the deposited data

Results flagged for a closer look

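In 3 of 24 groups of 4 arrays checked, 1 array stood far from the other 3, where chance gives about 1 in 20 groups. The second S100a8 probe read a log2 level of -6.23 on NM401 replicate 1, against -8.50 to -8.42 on the other NM401 arrays. S100a10 read 4.19 on NM401 replicate 1, against 4.07 to 4.09 on the others, and Anxa4 read 2.88 on NM401 replicate 4, against 2.97 to 2.98. NM401 replicate 1 is the array on slide 1. Leaving out each array in turn kept the calls of S100a10, at 0.50 to 0.59, and of Anxa4, at 0.28 to 0.33.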

How the results depend on the processing

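S100a4, S100a10, Anxa4 and Anxa5 kept their direction under every alternative run. Anxa2 turned to 0.20 with quantile normalisation. Members called higher numbered 4, but 7 with quantile normalisation and 0 within slide 1 (limma; 3 at an unadjusted p below 0.05). Members called lower numbered 2, but 1 with median scaling, without a filter, on probes above background on all 8 arrays and with the slide as a block, and 0 with quantile normalisation and within slide 1 (limma; 0 and 1 at an unadjusted p below 0.05); leaving out 1 array gave 1 to 2. Other S100 and annexin genes called numbered 6, but 3 without a filter, 2 with the slide as a block and 1 within slide 1. Partner and repair genes called numbered 24, but 9 within slide 1. All genes called higher numbered 3815, but 6094 with median scaling, 2215 with the slide as a block and 756 within slide 1. All genes called lower numbered 6153, but 9350 with normexp, 3341 with median scaling, 3516 with the slide as a block and 1361 within slide 1. Within slide 1, 1 NM401 array is assumed to vary like the controls. The cause of these shifts was not tested. The replicate numbers are not taken to pair the arrays, since not every correlation passed 0.1: same-numbered arrays correlated in their deviations at 0.19, -0.00, 0.08 and -0.07, and 2 of 4 NM401 arrays correlated best with their own number. With the replicate number as a block 4 members were higher, 2 lower, and 3527 and 5824 of all genes. S100a8 and S100a9 were limited by signal near background.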

Other observations

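Control replicates 2 and 4 held the 2 highest control levels for 6 of the 9 tested members (Anxa1, Anxa4, Anxa5, S100a10, S100a6 and S100a8), 66.7%, against 18% of all 17372 genes. The neutrophil marker Lcn2 had log2 levels of 3.42, 3.50, 3.43 and 3.34 on NM401 arrays and 2.06, 3.97, 1.57 and 4.37 on control arrays, and so was also highest in those 2 controls. Among the controls, Camp, Cebpe and Mmp9 were highest in replicates 2 and 4 too. Mpo was not, and its lowest control level, -5.28, was that of replicate 2. Control replicates 2 and 4 were singled out after their values were seen, and no test was made.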
